A study of Mus musculus with 6 samples.

Results

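The 9 genes described here encode parts of the superoxide-producing NADPH oxidases and the superoxide dismutases that act on their product. They were chosen by gene symbol as Cybb, Cyba, Ncf1, Ncf4 and Rac2 of the phagocyte oxidase, Nox4, and the dismutases Sod1, Sod2 and Sod3. They are 9 of the 47729 genes in the counted annotation, and all 9 were among the 14625 genes that passed the filter on low counts. RNA-seq was performed on 3 WT and 3 KO libraries of lung endothelial cells (ECs). KO mice carry a deletion of the leene region in all tissues, on the C57BL6 background. All mice, WT and KO, were males of 14 weeks on normal chow that received AngII at 1000 ng/kg/min from an osmotic pump for 2 weeks, so no library shows these genes without AngII. The labels describe CD31-enriched cells and a pool of 3 mice in each group, whereas the study's methods describe sorting with an antibody against CD144. The sources do not settle if each library came from a pool or from 1 animal, so n counts libraries and the p-values measure the spread between libraries. The leene transcripts are not listed in the counted annotation and were not analysed here, so the genotypes are those of the labels.

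NADPH oxidases pass electrons from NADPH across a membrane to oxygen. In phagocytes, the catalytic subunit NOX2 (encoded by Cybb) sits in the membrane with p22phox (Cyba). Superoxide is made once cytosolic subunits and the GTPase RAC2 have joined this pair. The cytosolic subunits include p47phox (Ncf1) and p40phox (Ncf4). NOX4 also needs p22phox but works without the cytosolic subunits and releases mainly hydrogen peroxide. ECs are known to express both NOX2 and NOX4, and AngII is a classical activator of vascular NADPH oxidases through its type 1 receptor. Superoxide dismutases convert superoxide to hydrogen peroxide in the cytosol (Sod1), in mitochondria (Sod2) and outside the cell (Sod3). Superoxide that is not removed reacts with nitric oxide, which links these genes to the control of BP.

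The bases upstream of the start sites of 4 members are shown because Cybb and Cyba encode the membrane pair of the phagocyte oxidase, Ncf1 its cytosolic organizer, and Nox4 the oxidase that shares only Cyba with it. The sequences are RefSeq's for GRCm38.p6 and hold the 250 bases before the annotated start, written 5′ to 3′ on the gene's strand. Capitals mark the box GGGCGG or its reverse complement CCGCCC, a binding sequence of SP1. The windows are chrX:9469325-9469574 (minus strand) for Cybb, chr8:122432941-122433190 (minus strand) for Cyba, chr5:134229626-134229875 (minus strand) for Ncf1 and chr7:87246399-87246648 (plus strand) for Nox4. Those of Cybb and Nox4 lie inside the span of the counted Ensembl gene, which begins further upstream than the RefSeq start.
Cybb: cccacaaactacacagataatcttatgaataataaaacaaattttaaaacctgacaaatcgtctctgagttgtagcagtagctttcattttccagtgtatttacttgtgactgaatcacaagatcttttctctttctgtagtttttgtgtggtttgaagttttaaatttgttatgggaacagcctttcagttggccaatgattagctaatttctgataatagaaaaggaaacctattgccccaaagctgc
Cyba: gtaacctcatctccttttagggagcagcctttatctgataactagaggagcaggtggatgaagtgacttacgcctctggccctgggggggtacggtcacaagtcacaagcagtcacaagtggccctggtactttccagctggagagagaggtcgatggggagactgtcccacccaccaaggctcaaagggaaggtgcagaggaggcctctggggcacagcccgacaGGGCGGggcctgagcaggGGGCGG
Ncf1: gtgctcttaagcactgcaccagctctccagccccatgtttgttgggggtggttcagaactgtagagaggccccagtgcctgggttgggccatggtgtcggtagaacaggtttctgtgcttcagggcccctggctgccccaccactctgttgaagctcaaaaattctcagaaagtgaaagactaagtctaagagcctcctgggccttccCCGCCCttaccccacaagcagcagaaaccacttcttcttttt
Nox4: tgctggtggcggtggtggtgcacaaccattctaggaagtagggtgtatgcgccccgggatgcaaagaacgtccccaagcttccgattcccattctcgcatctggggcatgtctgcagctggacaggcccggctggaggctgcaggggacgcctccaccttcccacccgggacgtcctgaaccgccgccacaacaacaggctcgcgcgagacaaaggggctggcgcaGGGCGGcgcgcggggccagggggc
The window of Cybb was poor in G and C (34%) and held no GGGCGG box. The windows of Cyba (60% G and C), Ncf1 (54.4%) and Nox4 (67.2%) held 2, 1 and 1 boxes. On either strand, 32.7% of all 32851 windows of this length held at least 1 box. The letters GAGGAA, a binding sequence of ETS factors such as PU.1, occurred in none of the 4 windows and in 23.3% of all windows. Shorter forms such as GGAA, which the window of Cybb holds, were not counted. No match says only that these letters are not in the window. Of the other members, Sod1 and Sod2 had a window, with 4 boxes each, and GAGGAA occurred 1 time in that of Sod2 and 0 times in that of Sod1.

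Total counts lay between 24464324 and 35184063 per library, and mitochondrial genes took 37.4% to 54.5% of them. Transcripts of other lung cells were present, and the libraries differed in them. The summed level of 12 macrophage and monocyte markers was 207 CPM (counts relative to the library's total, scaled by TMM) in WT replicate 1, 577 and 403 CPM in the other WT libraries and 349.8 to 594 CPM in KO. Much of this sum was Chil3 and Cd14, at 71.7 and 61.1 CPM in WT replicate 1 and 223 and 199 CPM in WT replicate 2. Of the 12 markers, 8 were higher and 4 lower in KO. Neutrophil markers (10 genes) summed to 31.9 to 89.4 CPM in WT and 58.7 to 66.3 CPM in KO, and B cell markers (8 genes) to 11.2 to 23.2 CPM in WT and 78.3 to 83.4 CPM in KO. Markers of ECs (10 genes) summed to 1919.7 to 3314 CPM in WT and 2118 to 3472 CPM in KO, so the labelled cell type was present in every library. The part of these cells in the values below was not tested, and in such bulk libraries fewer cells of a type and less RNA per cell cannot be told apart.

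With a threshold of 0.05 on the Benjamini-Hochberg adjusted p of edgeR's quasi-likelihood test, 0 of the 9 members differed between KO and WT. Of all 14625 genes, 16 (0.109%) did, 0.0342% being higher and 0.0752% lower in KO. Without adjustment, 0 members and 10.3% of all genes were under 0.05. DESeq2, which called 1.12% of all genes, called 0 members (0 also without adjustment), and limma-voom called 0 (1, Nox4, without adjustment). The WT and KO libraries overlapped for each of the 9 members, while 17.8% of all genes tested had groups that did not overlap. The median log2 fold change (log2FC, KO minus WT) was 0.01 over the members and 0.03 over all genes tested, with 5 members above and 4 below 0.

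**Figure D1:**
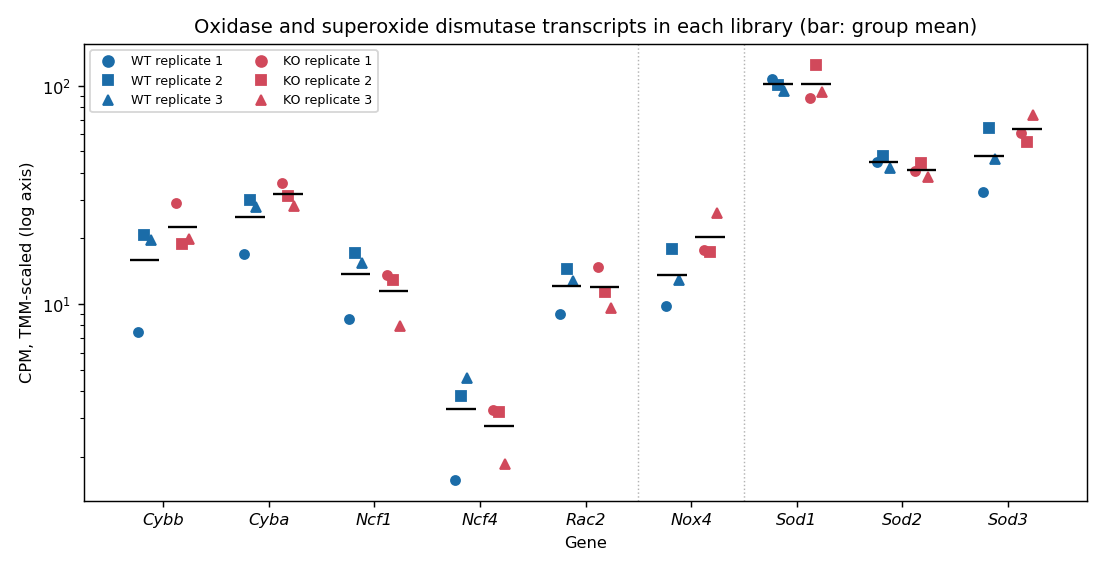
Level of each member in CPM (log axis) in the 3 WT (blue) and 3 KO (red) libraries, with a bar at each group's mean and dotted lines between the phagocyte genes, Nox4 and the dismutases. In TMM-scaled CPM, WT replicate 1 was the lowest library for Cybb, Cyba, Ncf4, Rac2, Nox4 and Sod3, and the groups overlapped for all 9 genes. For Ncf4, Rac2, Nox4 and Sod3 this rank depends on the TMM factor of WT replicate 1 (1.37).

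Cybb (ENSMUSG00000015340, chromosome X, 9435252 to 9487771, GRCm38, minus strand) encodes the catalytic subunit NOX2. In the order of the replicate numbers, used throughout, it was at 7.44, 20.7 and 19.8 CPM in WT libraries and at 28.9, 18.9 and 19.8 CPM in KO. WT replicate 1 stood far below the other 5 libraries and KO replicate 1 above them, while the remaining 4 lay close together. WT averaged 16.0 ± 7.40 CPM (SD, n = 3) and KO 22.6 ± 5.54 CPM (SD, n = 3). The log2FC was 0.50 (standard error, SE, 0.37; adjusted p = 0.639), with a 95% confidence interval of -0.36 to 1.36. Without WT replicate 1 it was 0.15 and without WT replicate 2 it was 0.71.

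Cyba (ENSMUSG00000006519, chromosome 8, 122424772 to 122432940, minus strand) encodes p22phox, the partner that stabilizes both NOX2 and NOX4. It was at 16.9, 30.0 and 27.9 CPM in WT libraries and at 35.9, 31.4 and 28.1 CPM in KO. Again WT replicate 1 was the lowest, and KO replicate 3 lay between the other WT libraries. The log2FC was 0.35 (SE 0.22, 95% confidence interval -0.17 to 0.87, adjusted p = 0.601). It was 0.13 without WT replicate 1.

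The cytosolic subunits lay on the other side of 0 or next to it. Ncf1 (ENSMUSG00000015950, chromosome 5, 134220053 to 134229625, minus strand), whose product p47phox is phosphorylated to start assembly, was at 8.54, 17.2 and 15.5 CPM in WT libraries and at 13.7, 12.9 and 7.93 CPM in KO. The lowest KO library was thus close to the lowest WT library. Its log2FC was -0.25 (SE 0.31, 95% confidence interval -0.96 to 0.46, adjusted p = 0.768). Ncf1 overlaps Gtf2ird2 on the opposite strand, and the counting was strand-specific.

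Ncf4 (ENSMUSG00000071715, chromosome 15, 78244801 to 78262580, plus strand), which encodes p40phox, was the lowest member, at 1.57, 3.82 and 4.59 CPM in WT and at 3.27, 3.20 and 1.86 CPM in KO. These values rest on 54 to 130 counts per library. The log2FC was -0.25 (SE 0.43, 95% confidence interval -1.24 to 0.74, adjusted p = 0.841), and it was 0.04 without WT replicate 3. Rac2 (ENSMUSG00000033220, chromosome 15, 78559169 to 78572783, minus strand), the Rac GTPase of leukocytes, was at 9.06, 14.5 and 12.8 CPM in WT libraries and at 14.8, 11.4 and 9.62 CPM in KO. The groups covered almost the same range. The log2FC of Rac2 was -0.02 (SE 0.23, 95% confidence interval -0.56 to 0.51, adjusted p = 0.98), and its sign depended on the libraries included.

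Nox4 (ENSMUSG00000030562, chromosome 7, 87246096 to 87398710, plus strand) had the largest log2FC of the 9 members. It was at 9.84, 17.9 and 12.9 CPM in WT libraries and at 17.6, 17.3 and 26.1 CPM in KO. WT replicate 2 lay above KO replicates 1 and 2, and KO replicate 3 was the highest library. WT averaged 13.6 ± 4.09 CPM (SD, n = 3) and KO 20.3 ± 5.01 CPM (SD, n = 3), a log2FC of 0.59 (SE 0.26). The 95% confidence interval ran from -0.01 to 1.19, with an unadjusted p of 0.0544 and an adjusted p of 0.494 in the quasi-likelihood fit. Without WT replicate 2 the log2FC was 0.81 (adjusted p = 0.0885), without WT replicate 1 it was 0.39 (adjusted p = 0.695) and without KO replicate 3 it was 0.36 (adjusted p = 0.729).

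In TMM-scaled CPM, Sod1 and Sod2 were the most even members across the libraries. The TMM factor was 1.37 for WT replicate 1 and 0.874 to 1.04 for the other libraries, and this evenness depends on that scaling. With total counts alone, the WT mean moved from 101.3 to 109.6 CPM for Sod1 and from 44.71 to 48 CPM for Sod2. Sod1 (ENSMUSG00000022982, chromosome 16, 90220742 to 90226322, plus strand) was at 108, 101 and 95 CPM in WT libraries and at 88.2, 125 and 93.8 CPM in KO. The highest and the lowest of the 6 values both came from KO libraries. Its log2FC was 0.01 (SE 0.17, 95% confidence interval -0.38 to 0.40, adjusted p = 0.984), and the sign turned under 9 of 16 alternative settings, 3 scalings and DESeq2 among them. Sod2 (ENSMUSG00000006818, chromosome 17, 13007839 to 13018119, plus strand) was at 44.7, 47.6 and 41.8 CPM in WT libraries and at 40.5, 44.2 and 38.0 CPM in KO. Of the 50-base windows of its transcripts, 21% also occur in other genes, and reads that align to several places were not counted. The spread of Sod2 over all 6 libraries was the smallest of the members in TMM-scaled CPM, with the highest library 1.25 times the lowest. The log2FC of Sod2 was -0.13 (SE 0.12, adjusted p = 0.709), and its 95% confidence interval of -0.41 to 0.15 was also the narrowest.

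Sod3 (ENSMUSG00000072941, chromosome 5, 52363791 to 52371418, plus strand), the secreted dismutase of the vessel wall, was at 32.5, 64.2 and 46.0 CPM in WT libraries and at 60.9, 55.4 and 73.8 CPM in KO. WT replicate 2 lay within the KO libraries and the other WT libraries below them. WT averaged 47.6 ± 15.9 CPM (SD, n = 3) and KO 63.4 ± 9.46 CPM (SD, n = 3). The log2FC was 0.41 (SE 0.25, 95% confidence interval -0.16 to 0.99, adjusted p = 0.582). It was 0.66 without WT replicate 2 (adjusted p = 0.0988) and 0.19 without WT replicate 1 (adjusted p = 0.82).

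**Figure D2:**
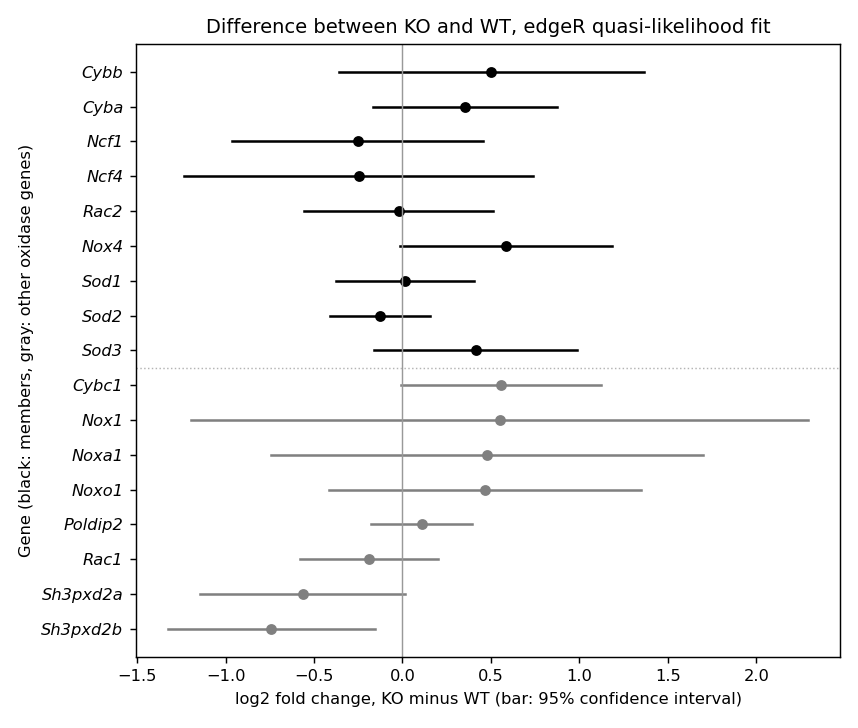
log2 fold change (KO minus WT) with its 95% confidence interval from edgeR's fit for the 9 members (black) and 8 other tested oxidase genes (gray). Only the interval of Sh3pxd2b, from -1.33 to -0.16, left out 0, and no gene shown passed an adjusted p of 0.05.

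Levels of different genes were compared as CPM per kilobase of counted exon, averaged over the 6 libraries. Sod1 was the highest at 158 CPM per kilobase, followed by Cyba (37.4), Sod3 (14.8), Sod2 (11.2), Rac2 (3.96), Ncf1 (3.45), Cybb (3.32), Nox4 (2.00) and Ncf4 (1.51). The ranges over libraries did not overlap between Sod1 and Cyba, between Cyba and Sod3 or between Sod2 and Rac2. Sod3 and Sod2 were not separated by their ranges, and neither were neighbors from Rac2 down to Ncf4. Sod1 made up 83.0% to 89.1% of the per-kilobase level of the 3 dismutases in every library.

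Among catalytic subunits, Cybb held 51.5%, 60.8% and 66.2% of the per-kilobase level in WT and 68.6%, 59.6% and 51.2% in KO. Nox4 held 46.7%, 36.1% and 29.6% in WT and 28.7%, 37.3% and 46.2% in KO. The balance between NOX2 and NOX4 transcripts thus varied within each genotype, and the groups overlapped. Nox1, Nox3, Duox1 and Duox2 together made up 1.85% to 4.16%. Cyba, which serves both main oxidases, was at 5.72 to 9.13 times the sum of Cybb and Nox4 per kilobase.

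The phagocyte genes were also set against Nox4 and the dismutases within each library. The mean log2 CPM of the 5 phagocyte genes minus that of Nox4 was -0.51, -0.33 and 0.10 in WT and -0.26, -0.48 and -1.44 in KO. The groups overlapped, and KO replicate 3, with the highest Nox4 and the lowest Ncf1, stood apart from the rest. The mean log2 CPM of the 3 dismutases minus that of the phagocyte genes was 2.95, 2.24 and 2.03 in WT and 2.02, 2.45 and 2.73 in KO, with a difference of the group means of -0.01. For the dismutases minus Nox4 the values were 2.45, 1.91 and 2.13 in WT and 1.77, 1.96 and 1.29 in KO.

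A ratio of counts of a pair of genes within a library does not depend on how libraries are scaled. Of the 36 pairs of members, 9 (25%) had ratios whose WT and KO libraries did not overlap, where 17.9% of all pairs of tested genes did. With 3 libraries against 3, an exact two-sided permutation test cannot give a p below 0.1, and adjusted over the 36 pairs the lowest p was 0.4. Of these 9 pairs, 5 set a membrane subunit against a cytosolic member, a grouping made after the values were seen. The other 4 were Cyba to Sod2, Nox4 to Sod2, Ncf1 to Nox4 and Ncf1 to Sod3. Cyba per Sod2 read was 0.378, 0.631 and 0.667 in WT and 0.887, 0.710 and 0.740 in KO, and Nox4 per Sod2 read was 0.220, 0.377 and 0.308 in WT and 0.435, 0.391 and 0.686 in KO. KO was the higher group for both. Ncf1 per Nox4 read was 0.868, 0.961 and 1.2 in WT and 0.776, 0.751 and 0.304 in KO, and Ncf1 per Sod3 read was 0.263, 0.268 and 0.336 in WT and 0.224, 0.234 and 0.107 in KO. Here KO was the lower group.

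Cybb per Ncf1 read was 0.871, 1.20 and 1.28 in WT and 2.12, 1.46 and 2.5 in KO. Each KO library exceeded each WT library, and the log2 ratio was 0.14 ± 0.30 (SD, n = 3) in WT and 0.98 ± 0.40 (SD, n = 3) in KO. With each library left out in turn, the difference of 0.84 ran from 0.67 to 1.06. Its sign could not turn there, since the groups do not overlap. Cyba per Ncf1 read was 1.98, 1.74 and 1.81 in WT and 2.63, 2.42 and 3.55 in KO, again with every KO library on the higher side. Cyba per Rac2 read was 1.87, 2.08 and 2.175 in WT and 2.42, 2.76 and 2.92 in KO, and Cybb to Rac2 and Cybb to Ncf4 were separated in the same direction. Only Cyba to Ncf4 overlapped between the groups among these 6 pairs.

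In mean log2 CPM, the membrane genes Cybb and Cyba exceeded Ncf1, Ncf4 and Rac2 by 1.16, 1.33 and 1.27 in WT and by 1.88, 1.64 and 2.16 in KO. No member of this set passed the test by itself. The 6 pairs reuse 5 genes in the same libraries and were grouped after their values were seen, so these ratios are a description without a test. Beside them, macrophage, neutrophil and B cell markers, whose cells use these subunits, had the levels given above, and their part in the ratios was not tested.

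**Figure D3:**
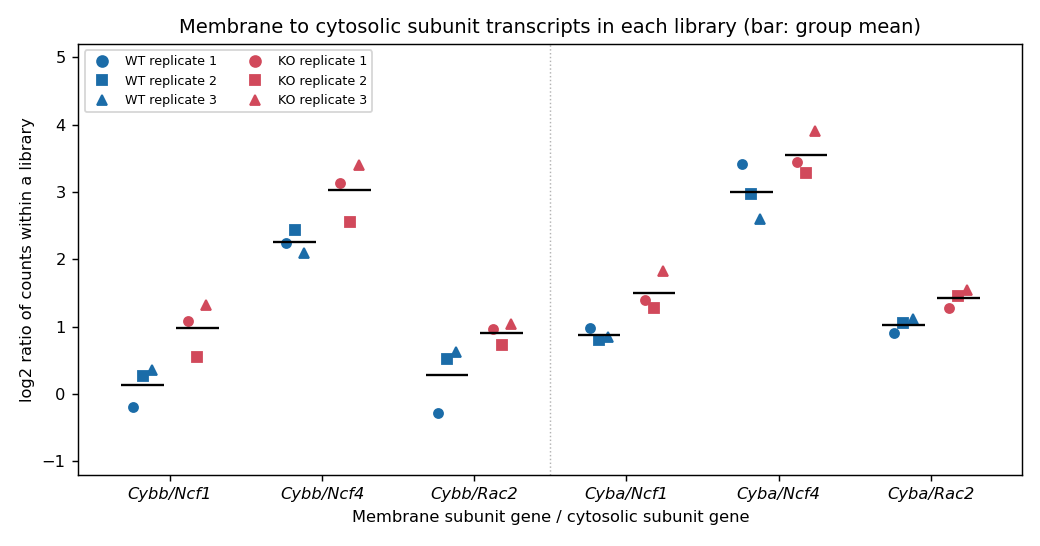
log2 ratio of the counts of Cybb or Cyba (membrane) to Ncf1, Ncf4 or Rac2 (cytosol) in each WT (blue) and KO (red) library, with a bar at each group's mean. In 5 of the 6 pairs all 3 KO libraries lay above all 3 WT libraries, and Cyba to Ncf4 was the exception.

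Of 13 other NADPH oxidase genes, 8 were tested, and 0 passed an adjusted p of 0.05 in either direction in edgeR's test (1 at an unadjusted p under 0.05, Sh3pxd2b). Their median log2FC was 0.29, against 0.03 over all genes. Sh3pxd2a and Sh3pxd2b encode the scaffolds TKS5 and TKS4, relatives of p47phox that organize NOX activity at podosomes. Sh3pxd2b was at 20.0, 35.9 and 19.2 CPM in WT libraries and at 15.5, 13.4 and 16.0 CPM in KO, a log2FC of -0.74 (SE 0.25, adjusted p = 0.404). Sh3pxd2a was at 711, 496 and 465 CPM in WT libraries and at 458, 306 and 367 CPM in KO, a log2FC of -0.56 (SE 0.25, adjusted p = 0.494). For both scaffolds every KO library was below every WT library, as it was for 9.2% of all genes tested.

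Cybc1, which encodes a chaperone needed for NOX2 protein, was at 7.39, 14.7 and 11.1 CPM in WT libraries and at 17.4, 14.7 and 16.8 CPM in KO. Its log2FC was 0.56 (SE 0.24, adjusted p = 0.494), and WT replicate 2 alone overlapped the KO libraries. Rac1, the widely expressed Rac GTPase, was at 284 to 344 CPM in WT and 258 to 292 CPM in KO, and Rac2 made up only 3.88% to 7.02% of the per-kilobase level of both. Poldip2, a NOX4 partner, had a log2FC of 0.11 (SE 0.12, adjusted p = 0.755).

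Transcripts of the other oxidases were scarce. Nox1 had 3 to 14 counts per library, and its organizer Noxo1 and activator Noxa1 were at 0.609 to 1.51 and 0.220 to 0.478 CPM. Their log2FCs were 0.55, 0.47 and 0.48 and none of the 3 passed the test. Duox1, Duox2, Duoxa1 and Duoxa2 stayed under the filter with at most 24 counts in a library, and Nox3 had 0 counts in all 6 libraries.

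Regulators of the oxidases were looked at as a list of 13 genes, of which 11 were tested and 0 passed an adjusted p of 0.05 in edgeR's test (1 at an unadjusted p under 0.05). The highest log2FC was that of Agtr1a, the type 1a receptor through which AngII acts. Agtr1a was at 3.04, 3.96 and 4.26 CPM in WT libraries and at 5.76, 6.0 and 8.83 CPM in KO, so each KO library exceeded each WT library, as was the case for 8.59% of all genes tested. Its log2FC was 0.88 (SE 0.24, adjusted p = 0.318). The next was Trpm2, a cation channel opened by oxidant stress, at 0.60 (SE 0.61) and at most 1.03 CPM in any library. The lowest were Prkcd (-0.24, SE 0.16) and Vav1 (-0.23, SE 0.34), a protein kinase C that phosphorylates p47phox and an exchange factor of RAC2. Agtr1b had 5 counts in WT replicate 2 and 0 elsewhere, and Agtr2 had 0 in all libraries.

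Downstream of the dismutases, hydrogen peroxide is removed by catalase, glutathione peroxidases and peroxiredoxins. All 21 genes of this list, with the copper carriers that load SOD1 and SOD3, were tested, and 0 passed an adjusted p of 0.05 in edgeR's test, with 0 at an unadjusted p under 0.05. Here 8 were above and 13 below 0, with a median log2FC of -0.10. The highest were Gpx8 (0.53, SE 0.38, adjusted p = 0.631) and Prdx4 (0.53, SE 0.40, adjusted p = 0.644), a peroxidase and a peroxiredoxin of the endoplasmic reticulum. Both were lowest in WT replicate 1, at 17.5 and 10.2 CPM, and Gpx8 passed when WT replicate 2 was left out (log2FC 1.07, adjusted p = 0.0414), a setting in which 5.29% of all genes tested passed. The lowest were Prdx6 (-0.40, SE 0.26, adjusted p = 0.599) and the glutathione reductase gene Gsr (-0.35, SE 0.20, adjusted p = 0.572). Every KO library was below every WT library for Atox1, a copper chaperone, and Txnrd1, a thioredoxin reductase, with log2FCs of -0.30 and -0.21. These 2 of 21 genes, singled out after their values were seen, are near the 9.2% of all genes with that order.

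The genes most like a member were those with the smallest root mean square difference of log2 CPM, centered over the 6 libraries, among 11608 genes. For Cybb these were C1qa (0.09), Sft2d1 (0.09), Igfbp7 (0.10), Slc35g2 (0.10) and Cd2 (0.11), where each number is that difference. All 5 were lowest in WT replicate 1 and highest in KO replicate 1, as Cybb was. They were picked for likeness to Cybb, so this shared order follows from the choice. For Nox4 they were Itga8 (0.08), Abca9 (0.10), Vstm4 (0.12), 1190002N15Rik (0.14) and Pcolce2 (0.14). For Sod3 they were Upk1b (0.08), Gpr180 (0.08), Itga8 (0.09), Abca9 (0.09) and Npr1 (0.10), so Itga8 and Abca9 were near both. Itga8 was at 13.2, 25.6 and 18.8 CPM in WT libraries and at 26.6, 22.3 and 34.8 CPM in KO.

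**Figure D4:**
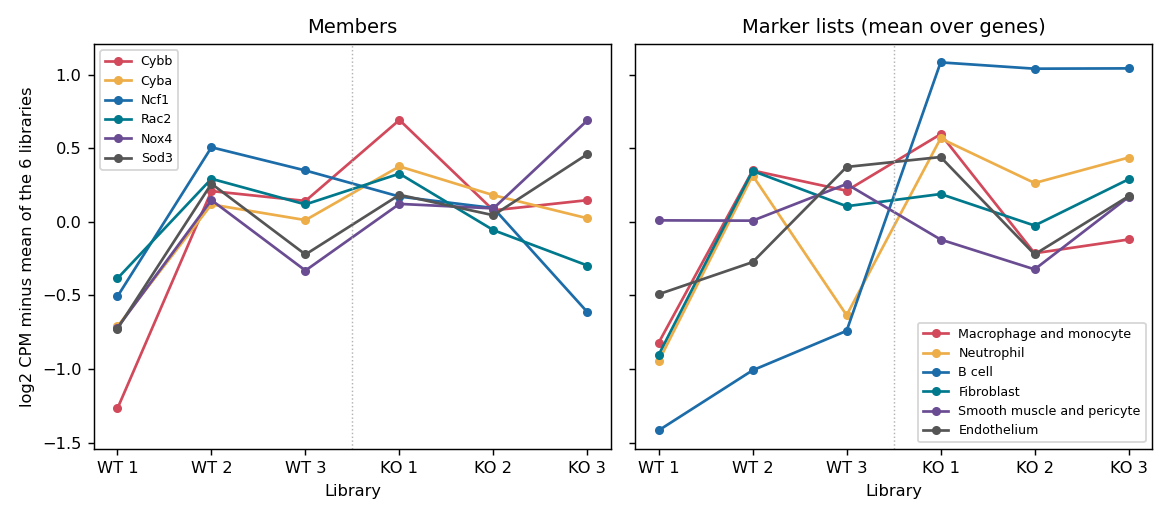
log2 CPM minus its mean over the 6 libraries for 6 members (left) and for the mean of 6 marker lists (right), with a dotted line between WT and KO libraries. WT replicate 1 was lowest for Cybb, Cyba, Nox4 and Sod3 and for the endothelium, macrophage, neutrophil, fibroblast and B cell lists but not the smooth muscle list, and the B cell list was higher in all 3 KO libraries. Some of these ranks, those for Nox4, Sod3 and the endothelium list among them, depend on the TMM factor of WT replicate 1 (1.37).

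Markers of mesenchymal cells were set beside Nox4 and Sod3, which such cells also express. Fibroblast markers (7 genes) summed to 319.6, 726 and 721 CPM in WT and 496 to 699 CPM in KO. Smooth muscle and pericyte markers (8 genes) summed to 270.3 to 323 CPM in WT and 198.8 to 282 CPM in KO, with Tagln at 68.9 to 84.9 CPM in WT and 29.3 to 46.5 CPM in KO (adjusted p = 0.14). Within the same list Pdgfrb, of pericytes, was at 22.3, 39.5 and 52.8 CPM in WT libraries and at 59.7, 43.1 and 70.7 CPM in KO. Alveolar type II markers (5 genes) summed to 4934, 46390 and 14404 CPM in WT and 36566 to 44951 CPM in KO, and T and NK cell markers (8 genes) to 2.77 to 4.64 CPM in WT and 6.99 to 10.01 CPM in KO. In mean log2 CPM after TMM scaling, WT replicate 1 was the lowest library for 7 of the 8 marker lists. Smooth muscle and pericyte was the exception. The endothelium list was at 7.20 in WT replicate 1 and 7.42 in WT replicate 2, with TMM factors of 1.37 and 0.969. Its rank thus depends on the scaling and does not show that WT replicate 1 held less EC RNA. No marker of these lists was at 0 in all 6 libraries. The median log2FC was 0.14 for EC, 0.29 for macrophage, 0.32 for neutrophil, 2.36 for B cell, 1.08 for T and NK cell, 0.24 for fibroblast, -0.37 for smooth muscle and 0.77 for alveolar type II markers. Of the 8 B cell markers, 3 (Fcrla, Cd79a and Ms4a1) passed the test, where 0.109% of all genes did. That count was 0 with any 1 KO library left out, 5 without WT replicate 1 and 6 without WT replicate 2. Of all genes tested, 0%, 0.16% and 5.29% passed in these settings. The part of these cells in the values of Nox4 and Sod3 was not tested.

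**Figure D5:**
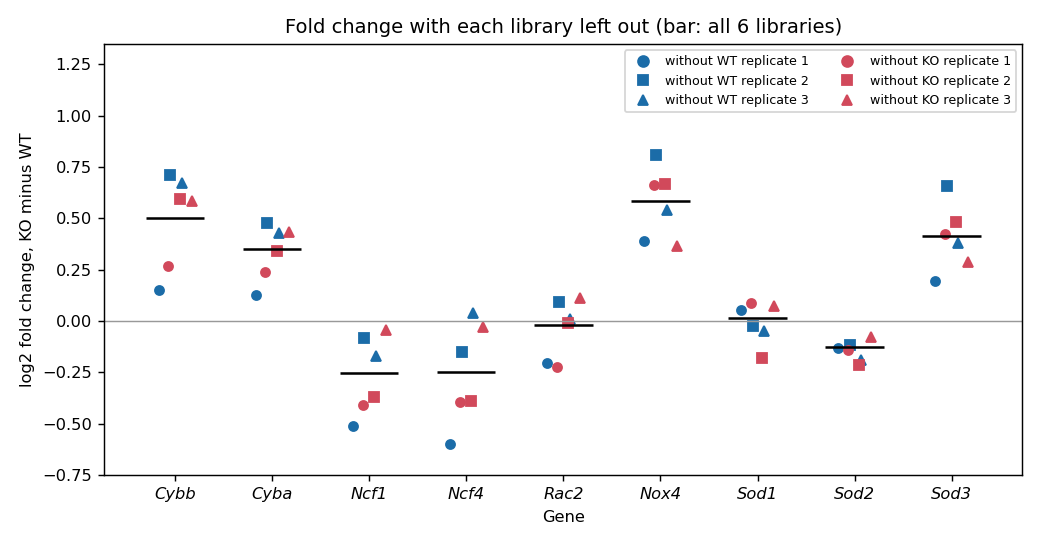
log2 fold change (KO minus WT) of each member with 1 library left out (symbols) and with all 6 libraries (bars). The values for Cybb ran from 0.15 to 0.71, those for Nox4 from 0.36 to 0.81 and those for Sod2 from -0.21 to -0.08.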

How the data were processed

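RNA-seq counts of 3 WT and 3 KO libraries were analysed, with groups and replicate numbers from the sample titles. The authors deposited raw counts per gene, 1 table per library. Per the submitters' processing notes and the file headers, reads were demultiplexed with bcl2fastq 2.18, aligned to mm10 with STAR 2.5.4b, and uniquely aligned reads were counted over exons of the Ensembl release 84 annotation of GRCm38 with featureCounts 2.0.0, on the reverse strand. Reads that align to several places are therefore not counted. Of the 50-base windows of the members' transcripts, 21% of Sod2's and 3.42% of Sod1's also occur in other genes, and at most 2.39% of any other member's.

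Of 47729 Ensembl identifiers, 47224 matched a GENCODE symbol. Genes were filtered with filterByExpr (default), scaled by TMM, and tested with edgeR 4.0.16 (R 4.3.3), a script tested on simulated data. Dispersions came from estimateDisp, and glmQLFit was run with legacy = TRUE, which is not the default of this version. The test was glmQLFTest (genotype only, two-sided, Benjamini-Hochberg over all 14625 genes, threshold 0.05). Ratios of reads are of the raw counts, log2 ratios used counts plus 0.5, and log2 CPM a prior count of 2. No pair of libraries was identical. Alternatives were DESeq2 1.42.0, limma-voom (limma 3.58.1), glmQLFit with legacy = FALSE, other scalings and filters, the replicate block and each library left out. Members, lists and rules for named genes (all members, all other oxidase genes, the 2 highest and 2 lowest and any called genes of each other pathway list, 5 genes of like pattern) were chosen with earlier results of these data known. Of the oxidase genes, 1 outside the members is not reported here. Genes outside these rules (Atox1, Txnrd1, Tagln, Pdgfrb, Chil3, Cd14) were named after their values were seen. Promoter windows are RefSeq's, and 6 members had one.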

Additional observations from a re-analysis of the deposited data

How the results depend on the processing

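Under all 16 alternatives, 0 of the 9 members were called, with adjusted p-values of 0.0885 to 0.998 over members and settings. Nox4 had an unadjusted p under 0.05 with limma-voom, upper-quartile scaling, no filter, the replicate block and without WT replicate 2, where Sod3 did too. Of all genes tested, 11.6%, 10.5%, 8.77%, 12.1% and 21.3% did in these settings. Cybb, Cyba, Ncf1, Nox4, Sod2 and Sod3 kept their direction under every alternative. With each library left out, log2 fold changes ran from 0.15 to 0.71 (Cybb), 0.13 to 0.48 (Cyba), -0.51 to -0.04 (Ncf1), 0.36 to 0.81 (Nox4), -0.21 to -0.08 (Sod2), 0.19 to 0.66 (Sod3), -0.60 to 0.0387 (Ncf4, above 0 without WT replicate 3), -0.22 to 0.11 (Rac2) and -0.18 to 0.0883 (Sod1). The sign of Sod1 also turned with DESeq2 (-0.0169), RLE (-0.0119), upper-quartile (-0.0176) and total-count scaling (-0.17), without mitochondrial genes (-0.00733) and with the replicate block (-0.0022). The cause was not tested. Total counts alone moved the median of all genes from 0.03 to -0.13.

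The count of all genes called was 16, and 185 with DESeq2, 26 with limma-voom and 22 with legacy = FALSE. It was 26 with RLE, 31 with upper-quartile and 123 with total-count scaling, and 152 without a filter. Leaving out 1 library gave 0 to 791, the highest without WT replicate 2 and 0 with any 1 KO library left out. Lists of other oxidase genes and regulators had 0 calls throughout, and the peroxide list 0 to 1 (Gpx8, without WT replicate 2, where 5.29% of all genes were called). The B cell list had 3 calls, and 0 to 6 over the alternatives, with 0 under the replicate block and 6 with DESeq2, total counts alone and no filter. The replicate block gave 0 genes called. Same-numbered libraries had correlations of their deviations from the group means of -0.08, 0.22 and 0.01, and differently numbered ones of -0.185 to 0.194. Deviations from a mean of 3 libraries are not independent of each other. These correlations therefore cannot show if the numbers pair the libraries. Ncf4 rests on 54 to 130 counts per library and Nox1 on 3 to 14.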
